A study of Homo sapiens with 12 samples.

Results

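The responses of A375 melanoma cells to 2 stresses were compared gene by gene, to find which mRNAs changed the same way under both, in opposite ways, or under one alone. The stresses were inhibition of the MAPK pathway (MAPKi) and depletion of glutamine (Gln). A375 is an established human melanoma line with a mutated BRAF, and all 12 libraries of the series were made from this 1 line. MAPKi cells received 500 nM of vemurafenib, a BRAF inhibitor, and 500 nM of cobimetinib, a MEK inhibitor, for 24 h, while DMSO cells received the solvent. Both of these groups were kept in DMEM with serum and 2 mM glutamine. Gln-depleted cells spent 24 h in DMEM with serum and no glutamine, and CTRL medium cells the same time in DMEM with serum and 2 mM glutamine. Each of the 4 groups holds 3 libraries, and the 2 experiments share no control library. Genes entered the comparison if they were protein-coding and averaged 10 or more normalized counts across all libraries, which kept 12629 of the 44659 genes counted.

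The MAPK pathway carries growth factor signals through RAF, MEK and ERK to transcription factors of the ETS and AP-1 families, and it is switched on by mutated BRAF in many melanomas. Its targets include its own inhibitors, the DUSP phosphatases and Sprouty proteins, and cyclin D1, which drives entry into the cell cycle. Glutamine feeds glutamate, aspartate, proline and nucleotide synthesis, and its lack is sensed through uncharged tRNAs by the kinase GCN2, which favours translation of the transcription factor ATF4. ATF4 induces genes of amino acid synthesis, amino acid transport and tRNA charging.

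Between 31056296 and 40071368 reads were counted per library. The libraries of the MAPKi experiment belong to sequencing batch 2 and those of the Gln experiment to sequencing batch 1, so batch and stress cannot be told apart, although each treatment shares its batch with its own control. In the Gln experiment replicate 1 is experimental batch 1, and replicates 2 and 3 are experimental batch 2. Replicate 1 of both groups stood apart: chi-square per degree of freedom over genes was 216 and 230 between CTRL medium replicate 1 and replicates 2 and 3, against 41.6 between the latter, and 220 and 202 for Gln-depleted replicate 1, against 75.5, while no replicate pair of the MAPKi experiment exceeded 15.99. The share of reads on RN7SK, an abundant nuclear RNA, was 3.95% to 4.397% with MAPKi against 1.93% to 2.15% with DMSO, and 1.99% to 3.79% after Gln depletion against 1.55% to 2.25% in CTRL medium. Its part in the results was not tested. All 10 melanoma markers checked were detected, MIA with at most 17 counts, and their summed level was 2820 to 2850 CPM (counts scaled to the library total) with MAPKi, 3790 to 3850 with DMSO, 2290 to 3830 after Gln depletion and 2910 to 4680 in CTRL medium. The sum hides members that went both ways. CSPG4 was at 152 to 160 CPM with MAPKi against 1662 to 1726 with DMSO, but SOX10 at 808 to 889 against 576 to 604. Of 9 melanoma markers tested, 4 were called up and 2 down with MAPKi by the rule given below. Of 18 markers of keratinocytes, immune cells and other cell types, 6 (KRT5, KRT1, CD3D, CD3E, CD2 and MS4A1) were at 0 in every library and 13 had at most 20 counts. Their summed level was 433 to 444 CPM with MAPKi against 171 to 176 with DMSO, and 146 to 238 against 142 to 214 in the Gln experiment, with CD68, which also codes for a lysosomal protein, leading the rise. In bulk RNA, fewer cells of a kind and less RNA per cell cannot be told apart. Nothing in the labels says that the replicates of the MAPKi experiment were separate cultures, so p-values measure the spread between these libraries, which may be technical.

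Both stresses raised 104 genes and lowered 105, and they moved 50 and 91 genes in opposite directions. A gene was called in an experiment where its change passed a threshold of 1.5-fold in edgeR's quasi-likelihood test, with adjusted p (Benjamini-Hochberg) no higher than 0.05. MAPKi called 16.9% of the genes tested up and 18.3% down, and Gln depletion 3.35% up and 2.04% down. The 104 genes up in both were 0.824% of the genes tested and the 105 down in both 0.831%. They made up 24.6% and 40.7% of the genes called up and down after Gln depletion, but 4.87% and 4.55% of those called with MAPKi. Of the genes moved in opposite directions, 50 (0.396%) rose with MAPKi and fell after Gln depletion, and 91 (0.721%) fell with MAPKi and rose after Gln depletion. The former were 19.4% of the genes called down after Gln depletion, and the latter 21.5% of those called up. The counts above, and all calls below unless the block is named, come from a fit that leaves out the replicate numbers. With the replicate number as a block in both experiments, the 4 counts were 271, 413, 137 and 159. Treated and control libraries share numbers in their titles in both experiments, but only the Gln experiment has experimental batch labels. The blocked classes contained 103, 105, 50 and 90 of the genes called without the block. Within experimental batch 2 of the Gln experiment the counts were 174, 279, 89 and 121. Leaving out 1 library at a time gave 42 to 111, 28 to 179, 16 to 62 and 49 to 96, with the lowest counts without CTRL medium replicate 3 or Gln-depleted replicate 2.

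Genes called in one experiment and changed by under 1.5-fold in the other were counted as changed alone only where the difference between the log2 fold changes was itself called. By this rule 892 genes (7.06%) rose and 897 (7.1%) fell with MAPKi alone, and 156 (1.24%) rose and 70 (0.554%) fell after Gln depletion alone. With the block, these counts were 1131, 1158, 492 and 328. A gene changed alone may still have had a smaller change in the other experiment. Called without a fold-change threshold, 74 of the 156 and 25 of the 70 genes of Gln depletion alone kept their class. So did 892 of the 892 and 896 of the 897 genes of MAPKi alone. The difference, MAPKi minus Gln depletion, was called higher with MAPKi in 2505 genes (19.8%) and lower in 2613 (20.7%), and with the block in 3705 and 3999. Of the 4097 genes called with MAPKi and not after Gln depletion, 1457 did not differ by this test, so they were not counted as particular to MAPKi. The median standard error of a log2 fold change was 0.0675 with MAPKi and 0.266 after Gln depletion, so the 2 experiments had unequal power.

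Across all 12629 genes the changes were weakly related, with a Pearson correlation of 0.10 and a Spearman correlation of 0.18, and 56.9% of the genes had the same sign. This is a description across genes, which are not independent replicates. Genes called up after Gln depletion had a median MAPKi log2 fold change of 0.22 and those called down of -0.54. The opposite view gave medians of 0.08 and -0.32 after Gln depletion for the genes called up and down with MAPKi.

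**Figure D1:**
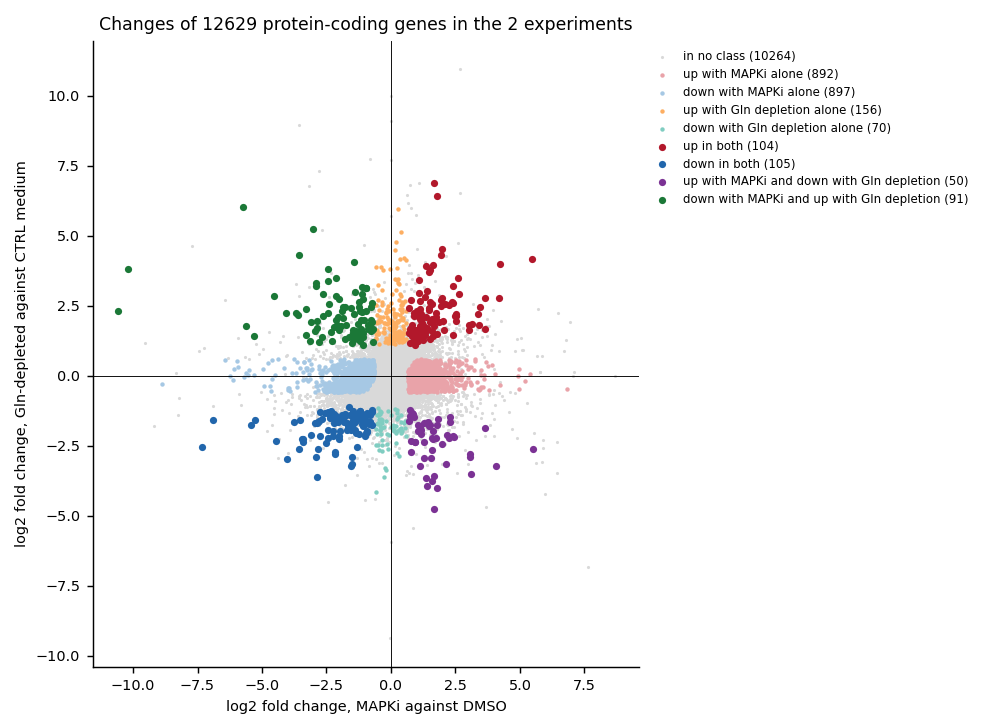
Log2 fold change with MAPKi (x axis) against that after Gln depletion (y axis) for the 12629 genes tested, 1 point a gene, coloured by class with the number of genes in each. Members of the 104 and 105 genes changed the same way lie in the upper right and lower left quadrants, the 50 and 91 changed in opposite ways in the other two, and the genes changed alone lie along the axes.

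The genes raised by both stresses had median log2 fold changes of 1.39 with MAPKi and 1.98 after Gln depletion. Their difference was called in 37 of 104, in 7 of which MAPKi had the stronger rise and in 30 Gln depletion. In 50 of 104 the difference was under 1.5-fold. Every member rose in each of the 3 same-numbered Gln pairs, with medians of 1.91, 1.98 and 1.79 by pair. The genes were chosen by these calls, so their signs by pair and their medians describe them and test nothing. Of the 104 genes 16 are on one of the pathway lists used below. The lists were chosen with earlier results of these data known. The share of all genes tested that is on a list was not counted, so such counts do not compare classes.

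SLC16A4 (chr1:110362857-110391026), a member of the monocarboxylate transporter family, changed to nearly the same level under both stresses. Its normalized counts were 4033, 3398 and 3564 with MAPKi against 625, 523 and 624 with DMSO, and 3788, 4179 and 3635 after Gln depletion against 600, 544 and 455 in CTRL medium. The groups did not overlap in either experiment, which was required of the leading genes named from each class where they were called. Its log2 fold changes were 2.65 ± 0.09 (SE, adjusted p = 2.93e-08) and 2.91 ± 0.20 (adjusted p = 0.000672), and the difference of -0.22 ± 0.19 was not called (adjusted p = 0.386).

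The largest shared rise was that of SLITRK6 (chr13:85792790-85799419), a transmembrane protein of neurons, at a much lower level. Its normalized counts were 178, 199 and 170 with MAPKi against 5.39, 9.93 and 13.6 with DMSO, and 114, 528 and 292 after Gln depletion against 15.2, 37.4 and 8.02 in CTRL medium. The Gln libraries spread widely, within the lack of overlap required of a named gene. The log2 fold changes were 4.22 ± 0.26 and 3.99 ± 0.71, with adjusted p of 1.13e-06 and 0.0193.

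ATF3, a transcription factor induced by many kinds of stress, had normalized counts of 1373, 1648 and 1778 with MAPKi against 342, 255 and 344 with DMSO. After Gln depletion they were 1973, 3026 and 2564 against 571, 463 and 233. All treated libraries exceeded all controls, by log2 fold changes of 2.36 and 2.63, and the difference between these was -0.22 ± 0.39 (adjusted p = 0.684). LURAP1L rose by 2.42 and 3.201 on the log2 scale, and PITPNM3, of a family of phosphatidylinositol transfer proteins, by 3.45 and 2.47. The PITPNM3 difference of 1.03 was not called as reported (adjusted p = 0.0623) and was called with the block.

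**Figure D2:**
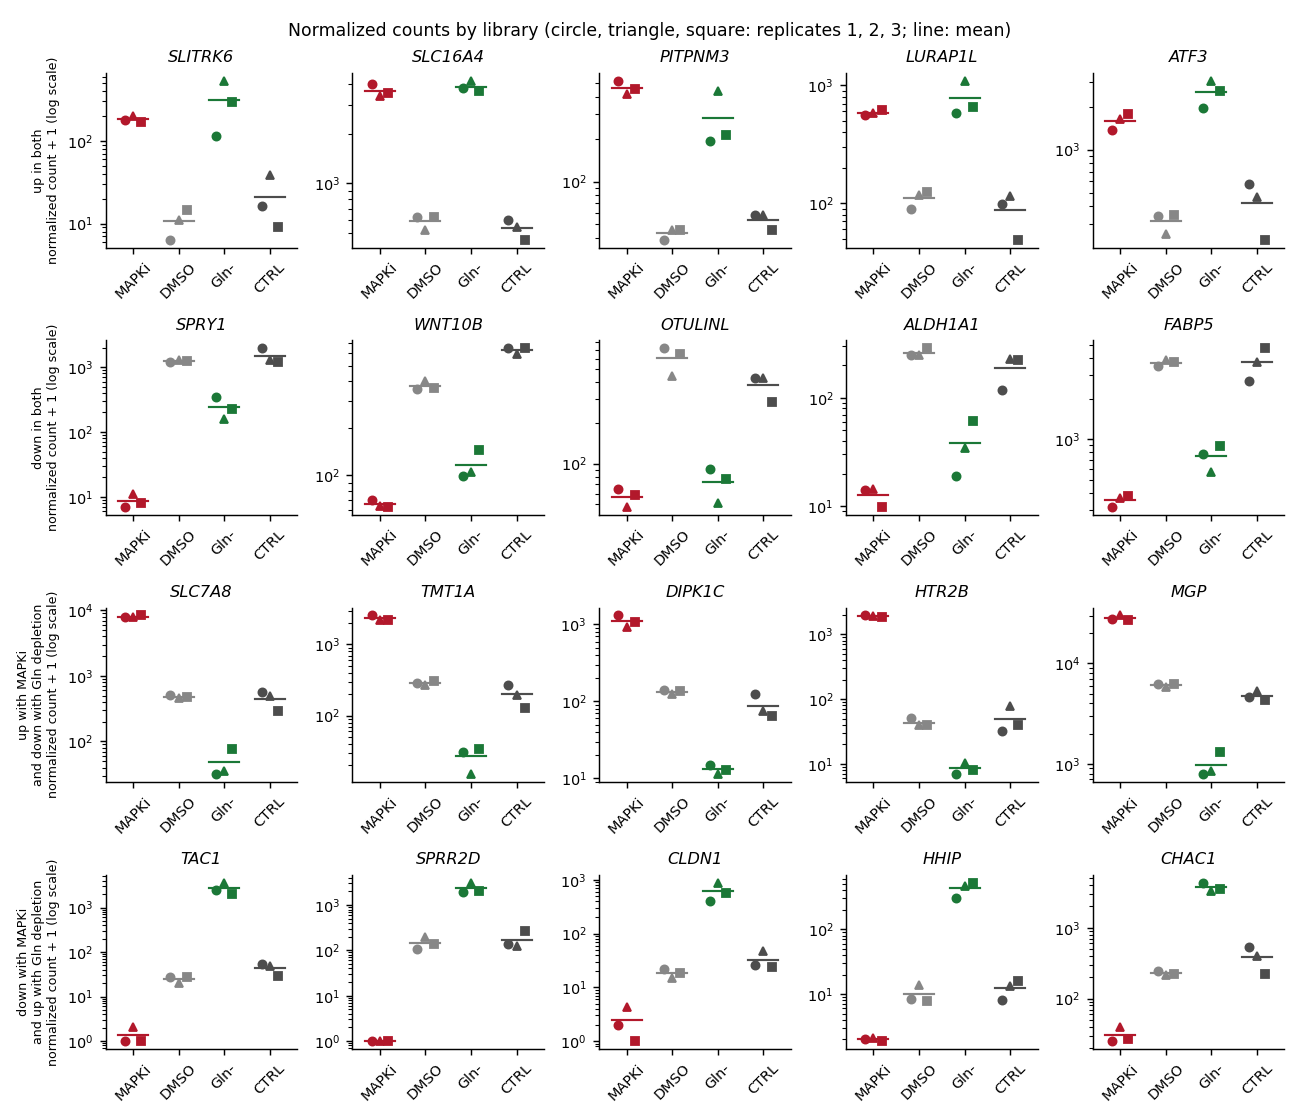
Normalized count plus 1 (log scale) in each library for the 5 leading genes of each class called in both experiments, 1 panel a gene and 1 row a class; symbols are replicates 1, 2 and 3 and lines are means. In SLC16A4 both treated groups reach a similar level, and in SLC7A8 and CHAC1 the treated groups lie on opposite sides of their controls.

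The genes lowered by both stresses had median log2 fold changes of -1.72 with MAPKi and -1.66 after Gln depletion. Here the difference was called in 39 of 105, with the stronger fall under MAPKi in 23 and under Gln depletion in 16, and it was under 1.5-fold in 54. All 105 fell in each of the 3 Gln pairs, by medians of 1.67, 1.96 and 1.52 on the log2 scale. Here too the genes were chosen by their calls, so this tests nothing. Of the 105 genes 19 are on a pathway list.

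WNT10B (chr12:48965340-48971735), a secreted Wnt ligand, fell to a like extent under both. It had normalized counts of 68.4, 62.5 and 62.0 with MAPKi against 357, 402 and 362 with DMSO, and 97.9, 104 and 145 after Gln depletion against 645, 593 and 646. No treated library came near a control. The log2 fold changes were -2.52 and -2.40 (adjusted p = 0.00242 for the latter), and their difference was -0.08 ± 0.23 (adjusted p = 0.797).

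SPRY1, a feedback inhibitor of receptor tyrosine kinase signalling, fell under both but far more with MAPKi. Its normalized counts were 6.03, 10.0 and 7.09 with MAPKi against 1200, 1287 and 1264 with DMSO, and 348, 159 and 222 after Gln depletion against 1951, 1268 and 1211. The log2 fold changes of -7.32 and -2.55 differed by -4.72 ± 0.45 (adjusted p = 1.26e-05). It was the 1 member of the MAPK target list that fell under both.

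FABP5, which binds fatty acids, fell by 3.39 and 2.28 on the log2 scale, and ALDH1A1, which makes retinoic acid from retinaldehyde, fell by 4.46 and 2.32. Both fell more with MAPKi, with differences of -1.08 (adjusted p = 0.0103) and -2.09 (adjusted p = 0.0106). OTULINL fell by 3.41 and 2.36, and its difference of -1.01 lay at the threshold (adjusted p = 0.0459) and missed it under 14 of the alternatives tried.

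Genes that rose with MAPKi and fell after Gln depletion had median log2 fold changes of 1.56 and -2.22. The leading one was SLC7A8 (chr14:23125295-23183660), the LAT2 light chain that carries neutral amino acids. It had normalized counts of 7940, 7815 and 8377 with MAPKi against 504, 456 and 481 with DMSO, and 30.98, 34.0 and 75.9 after Gln depletion against 567, 492 and 292 in CTRL medium. The controls of the 2 experiments lay close to each other, with the treated libraries far above and far below. Its log2 fold changes were 4.08 and -3.22, and the difference was 7.36 ± 0.44 (adjusted p = 3.07e-07).

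HTR2B, a serotonin receptor, rose to 1953, 1897 and 1864 with MAPKi from 49.6, 38.7 and 38.8, and fell to 5.996, 9.46 and 7.12 after Gln depletion from 31.3, 76.7 and 38.3. MGP, matrix Gla protein, an inhibitor of calcification, moved from a much higher level: 27890, 30050 and 27050 with MAPKi against 6195, 5781 and 6289, and 794, 847 and 1303 after Gln depletion against 4664, 5313 and 4347. In MGP the 2 log2 fold changes were of nearly equal size, 2.23 and -2.24. TMT1A, a thiol methyltransferase, had 3.05 and -2.89, and DIPK1C 3.07 and -2.78.

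The 91 genes that fell with MAPKi and rose after Gln depletion had median log2 fold changes of -1.62 and 1.97. On a pathway list are 29 of them and 3 of the 50 of the reverse kind, counts that depend on which lists were chosen. TAC1, the precursor of substance P, was the leading one. It had 1 read in the 3 MAPKi libraries and 72 with DMSO, a ratio of 73.5 with a 95% interval from counting error alone of 12.8 to 2940. After Gln depletion its normalized counts were 2447, 3630 and 1975 against 52.5, 48.0 and 27.6 in CTRL medium, a log2 fold change of 6.02. SPRR2D, an envelope precursor of keratinized cells from a family of near-identical genes and so uncertain, was at 0 in all MAPKi libraries, at least 49.3-fold lower than with DMSO, and rose by 3.82 after Gln depletion.

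CHAC1 (chr15:40953471-40956512), an enzyme that degrades glutathione, is a classic target of ATF4. Its normalized counts were 24.1, 39.1 and 25.7 with MAPKi against 241, 217 and 220 with DMSO, and 4339, 3279 and 3502 after Gln depletion against 537, 393 and 222. Every MAPKi library was under, and every Gln-depleted library above, all 6 controls. The log2 fold changes of -2.92 and 3.32 differed by -6.20 ± 0.42 (adjusted p = 8.78e-07). Few reads marked the other leading genes under MAPKi: the tight junction gene CLDN1 was lower by 4.78-fold to 49.6-fold (95% interval, counting error) and HHIP, which binds hedgehog ligands, 9.19-fold lower (2.83 to 47.3), while after Gln depletion they rose by 4.32 and 5.24 on the log2 scale.

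Among genes changed by MAPKi alone, TCN1 (chr11:59852808-59866487), a vitamin B12-binding protein, differed in the MAPKi experiment and overlapped in the other. Its normalized counts were 9692, 8391 and 8186 with MAPKi against 231, 177 and 229, while 138, 117 and 204 after Gln depletion overlapped with 137, 138 and 181 in CTRL medium. The log2 fold changes were 5.38 and 0.05. ANGPTL7, the matrix protein gene MATN2 and AGT, the precursor of angiotensin, rose by 6.83, 5.18 and 4.97, with -0.49, -0.19 and -0.48 after Gln depletion. Counts of ANGPTL7 in the Gln experiment were at most 10.7, and those of AGT at most 8.02.

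Of the genes that fell with MAPKi alone, ETV4 (chr17:43527846-43546340) and ETV5, ETS factors downstream of ERK, led. Normalized counts of ETV5 were 138, 142 and 136 with MAPKi against 11720, 11510 and 12620, and 19390, 14010 and 13020 after Gln depletion against 16050, 8568 and 8196. The Gln groups overlapped, and its log2 fold change of 0.55 there lay just inside the 1.5-fold limit of the class. ETV4 had -5.98 and 0.52, and its Gln groups did not overlap. CYB5R2, a cytochrome b5 reductase, had -6.25 and -0.02, and MGLL, monoacylglycerol lipase, -5.92 and 0.32.

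After Gln depletion alone, NRP1 (chr10:33177493-33334667), a coreceptor for semaphorins and VEGF, rose to 24280, 29520 and 9316 from 1140, 918 and 840. With MAPKi it was at 691, 646 and 638 against 592, 623 and 594. Its log2 fold changes were 0.14 and 4.496, and the difference was -4.31 (adjusted p = 2.56e-05). The netrin receptor UNC5B rose by 5.96, the small GTPase RAB39B by 4.77 and the receptor subunit IL20RB by 3.89 on the log2 scale, with 0.29, 0.21 and -0.38 under MAPKi. For UNC5B and RAB39B no library outside the Gln-depleted group exceeded 23.4 normalized counts.

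P2RX7 (chr12:121132876-121188032), an ion channel opened by ATP, fell after Gln depletion alone. It had 642, 537 and 567 normalized counts against 7368, 6118 and 4335 in CTRL medium, and 6223, 5364 and 5309 with MAPKi against 6961, 6101 and 7073. The MAPKi and DMSO ranges overlapped, and the log2 fold changes were -0.24 and -3.30. MTSS1, which links membranes to actin, fell by 3.61 and the protocadherin PCDH18 by 2.75, with -0.25 and 0.21 under MAPKi. The MAPKi and DMSO groups of MTSS1 did not overlap. RARB, a retinoic acid receptor, fell by 2.14 while its MAPKi value of 0.58 lay just inside the limit. Its MAPKi and DMSO groups did not overlap either.

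Lists of genes with a shared role were then read in the same way, by the count of members in each class and the medians, beside the values for all genes. Over the 12629 genes, the median log2 fold change was 0.01 with MAPKi and 0.00 after Gln depletion, and the difference was called higher in 19.8% and lower in 20.7%. List counts with the block are to be read beside those of all genes with it. These were 271 up and 413 down in both, 137 and 159 in the opposite classes, and 3705 higher and 3999 lower.

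Genes of the response to amino acid lack differed between the stresses, and some moved in opposite ways. Of 22 tested, ATF4 and its targets, 7 fell with MAPKi and rose after Gln depletion, 3 rose under both, and the difference was called lower with MAPKi in 19 and higher in 0. MAPKi called 5 of the 22 up and 10 down, and Gln depletion 16 up and 0 down. Their medians were -0.69 and 2.45. ATF4 itself had 4092, 4441 and 4337 normalized counts with MAPKi against 7358, 6382 and 7811, and 35540, 32220 and 30840 after Gln depletion against 11480, 8877 and 6927. It fell by 0.73 and rose by 1.90, a difference of -2.59 ± 0.24 (adjusted p = 8.92e-06).

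TRIB3, a pseudokinase that restrains the ATF4 response, had 637, 647 and 581 normalized counts with MAPKi against 1447, 1331 and 1312, and 22360, 20340 and 20050 after Gln depletion against 2610, 2630 and 1917. No library of one group reached another within an experiment. The secreted factors GDF15 (-1.78 and 2.45) and STC2 (-1.90 and 2.30) and the C/EBP family factor CEBPG (-0.78 and 2.45) moved like it, the log2 fold changes being those with MAPKi and after Gln depletion. ASNS, which makes asparagine from aspartate and glutamine, had -2.13 and 2.86, but at most 141 normalized counts, and it overlaps a read-through transcript that counting may not separate.

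Besides ATF3, the members up in both were NUPR1, a small chromatin protein of stress, and DDIT4, an inhibitor of mTORC1. NUPR1 had 611, 557 and 641 normalized counts with MAPKi against 187, 97.3 and 191, and 2632, 3994 and 4986 after Gln depletion against 158, 345 and 102. Both rose more after Gln depletion, with differences of -2.33 (adjusted p = 0.0059) for NUPR1 and -1.69 (adjusted p = 4.21e-05) for DDIT4.

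ATF4 binds, with C/EBP proteins, a composite element with the letters TGATGNAA. It was searched on both strands of 300-base windows, from 250 bases before to 50 after each start site, given by RefSeq for GRCh38.p14. The element stood in 182 of the 10420 windows of genes tested (1.75%) and in 1003 of all 27305 windows (3.67%). Among genes down with MAPKi and up after Gln depletion 7 of 66 windows held it (10.6%), and among genes up in both 7 of 81 (8.64%). Of the reverse opposite class 1 of 38 did (2.63%), of the genes up after Gln depletion alone 6 of 127 (4.72%), and of the genes down in both 0 of 83. A match is a description and not a binding site, and the classes were not compared by a test. Only 1 window per gene was searched, so other start sites of a gene were left out. For ATF3 the window lies at the outer end of a gene that spans chr1:212565407-212620777. Which start site these cells use was not tested. The 250 bases before the start sites of CHAC1 and ASNS, which moved in opposite ways, and of ATF3 and GOT1, which rose under both, are shown because genes of both patterns hold the same element. Each is read 5′ to 3′ on the strand of its gene, and capitals mark the match, which begins 209, 68, 191 and 198 bases before the start site.
CHAC1 (chr15:40953221-40953470, plus strand): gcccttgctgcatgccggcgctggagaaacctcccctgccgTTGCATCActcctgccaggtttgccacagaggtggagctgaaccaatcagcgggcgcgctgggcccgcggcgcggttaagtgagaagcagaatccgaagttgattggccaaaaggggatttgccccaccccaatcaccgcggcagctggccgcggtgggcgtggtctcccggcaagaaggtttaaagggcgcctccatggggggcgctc
ASNS (chr7:97872409-97872658, minus strand): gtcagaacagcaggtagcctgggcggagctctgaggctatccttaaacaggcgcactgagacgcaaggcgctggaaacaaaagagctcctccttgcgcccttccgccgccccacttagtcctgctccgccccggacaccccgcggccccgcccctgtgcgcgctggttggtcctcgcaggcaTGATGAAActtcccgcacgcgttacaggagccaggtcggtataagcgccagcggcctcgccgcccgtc
ATF3 (chr1:212565157-212565406, plus strand): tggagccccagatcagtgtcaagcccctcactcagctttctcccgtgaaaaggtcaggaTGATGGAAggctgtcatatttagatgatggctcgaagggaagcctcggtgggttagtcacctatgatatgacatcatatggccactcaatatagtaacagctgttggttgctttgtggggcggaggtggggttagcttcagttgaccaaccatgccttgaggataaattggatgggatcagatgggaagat
GOT1 (chr10:99430625-99430874, minus strand): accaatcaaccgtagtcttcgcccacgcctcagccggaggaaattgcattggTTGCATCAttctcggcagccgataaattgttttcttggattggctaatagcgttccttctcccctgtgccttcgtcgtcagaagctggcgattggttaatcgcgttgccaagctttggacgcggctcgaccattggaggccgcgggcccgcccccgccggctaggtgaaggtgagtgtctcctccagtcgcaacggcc
In CHAC1 and GOT1 the element is read on the opposite strand.

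Of 20 cytosolic aminoacyl-tRNA synthetases, which charge tRNAs with amino acids, the difference was lower with MAPKi in 13 and higher in 1, with medians of -0.53 and 0.81. With the block 3 rather than 1 fell with MAPKi and rose after Gln depletion. GARS1, for glycine, fell with MAPKi and rose after Gln depletion, by -0.79 and 1.58 on the log2 scale. QARS1, for glutamine, was the exception, with 1.02 and -0.19 and a difference of 1.26 (adjusted p = 0.0111). The composite element stood in 6 of the 16 windows of this list (37.5%). It stood in 3 of the 20 windows of the amino acid response list (15.0%) and in 4 of 17 of the amino acid transporters (23.5%).

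Amino acid transporters were split within the family. Of 22 tested, 3 rose under both, 1 fell under both, 4 fell with MAPKi and rose after Gln depletion, and SLC7A8 did the reverse. SLC7A5 and SLC3A2, the light and heavy chain of the LAT1 exchanger of large neutral amino acids, rose alike. SLC7A5 had 122000, 96500 and 98390 normalized counts with MAPKi against 20680, 18800 and 16240, and 158000, 164800 and 151400 after Gln depletion against 29340, 37440 and 39020. For SLC3A2 the counts were 23870, 18960 and 18930 against 6170, 5780 and 5163, and 40270, 30050 and 24630 against 9721, 8515 and 7800. The log2 fold changes were 2.52 and 2.21 for SLC7A5 and 1.87 and 1.92 for SLC3A2, with differences of 0.35 ± 0.20 (adjusted p = 0.194) and -0.01 ± 0.25 (adjusted p = 0.986). SLC1A4, which carries alanine, serine and cysteine, rose by 0.91 and 1.62.

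Other importers moved oppositely. SLC7A11, the cystine-glutamate antiporter, had 891, 731 and 710 normalized counts with MAPKi against 3767, 3295 and 3292, and 38670, 69490 and 56180 after Gln depletion against 2520, 8087 and 4353. SLC1A5, the main glutamine importer ASCT2, had 2397, 1992 and 1983 against 8996, 7794 and 7675, and 42030, 36760 and 35050 against 14460, 10430 and 9844. Their differences were -5.60 (adjusted p = 8.36e-06) and -3.64 (adjusted p = 5.79e-07). The cationic transporter SLC7A1 (-1.37 and 1.59) and the glutamine transporter SLC38A1 (-0.76 and 1.97) followed, in the same order of stresses. SLC1A1, a glutamate importer, fell by 1.70 and 1.69. SLC38A3, another glutamine transporter, was at 0 in the Gln experiment and at least 16.9-fold higher with MAPKi than with DMSO, where it was at 0.

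Enzymes of glutamine, glutamate, aspartate and proline numbered 15 tested, of which 4 fell with MAPKi and rose after Gln depletion and 1 rose under both. PYCR1, the last enzyme of proline synthesis, had 676, 654 and 645 normalized counts with MAPKi against 2816, 2783 and 2689, and 13960, 13460 and 14460 after Gln depletion against 3895, 3149 and 2972. Its groups did not overlap in either experiment, and its difference was -4.12 ± 0.17 (adjusted p = 2.61e-08). The transaminase GPT2 (-1.11 and 2.27) and GFPT1 (-0.88 and 1.82), which uses glutamine to start hexosamine synthesis, moved the same way. GOT1, which makes aspartate from glutamate in the cytosol, rose by 1.06 and 2.14 (difference -1.03, adjusted p = 0.0254). GFPT2, a close relative of GFPT1, had 0.34 and -1.42, neither called, with a called difference of 1.81 (adjusted p = 0.00625).

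Of 17 serine and one-carbon enzymes, 4 fell with MAPKi and rose after Gln depletion. MTHFD2, the mitochondrial folate enzyme, had 1363, 1492 and 1422 normalized counts with MAPKi against 8977, 8890 and 9276, and 44910, 51280 and 48250 after Gln depletion against 10570, 12820 and 10760. Its groups were far apart in both experiments, and its difference was -4.74 ± 0.16 (adjusted p = 7.37e-09). MTHFD1L, also of mitochondrial folate metabolism (-2.79 and 1.196), and PHGDH and PSPH, the first and last enzyme of serine synthesis (-1.16 and 2.01, and -0.90 and 1.68), were the others. TYMS, which makes thymidylate, fell under both, with -2.195 and -1.38.

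NRF2, the regulator of antioxidant genes, had 18 of its targets and glutathione genes tested, with medians of -0.22 and 0.95, and the difference was lower with MAPKi in 9 and higher in 1. Opposite members were SLC7A11, OSGIN1 (-0.99 and 3.12) and TXNRD1, thioredoxin reductase. TXNRD1 had 7115, 7610 and 8012 normalized counts with MAPKi against 12310, 12860 and 12750, and 93520, 83150 and 72960 after Gln depletion against 12820, 15160 and 14220. HMOX1, heme oxygenase, was the 1 member higher with MAPKi, with 1.77 and 1.06, the latter not called (difference 0.75, adjusted p = 0.038).

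**Figure D3:**
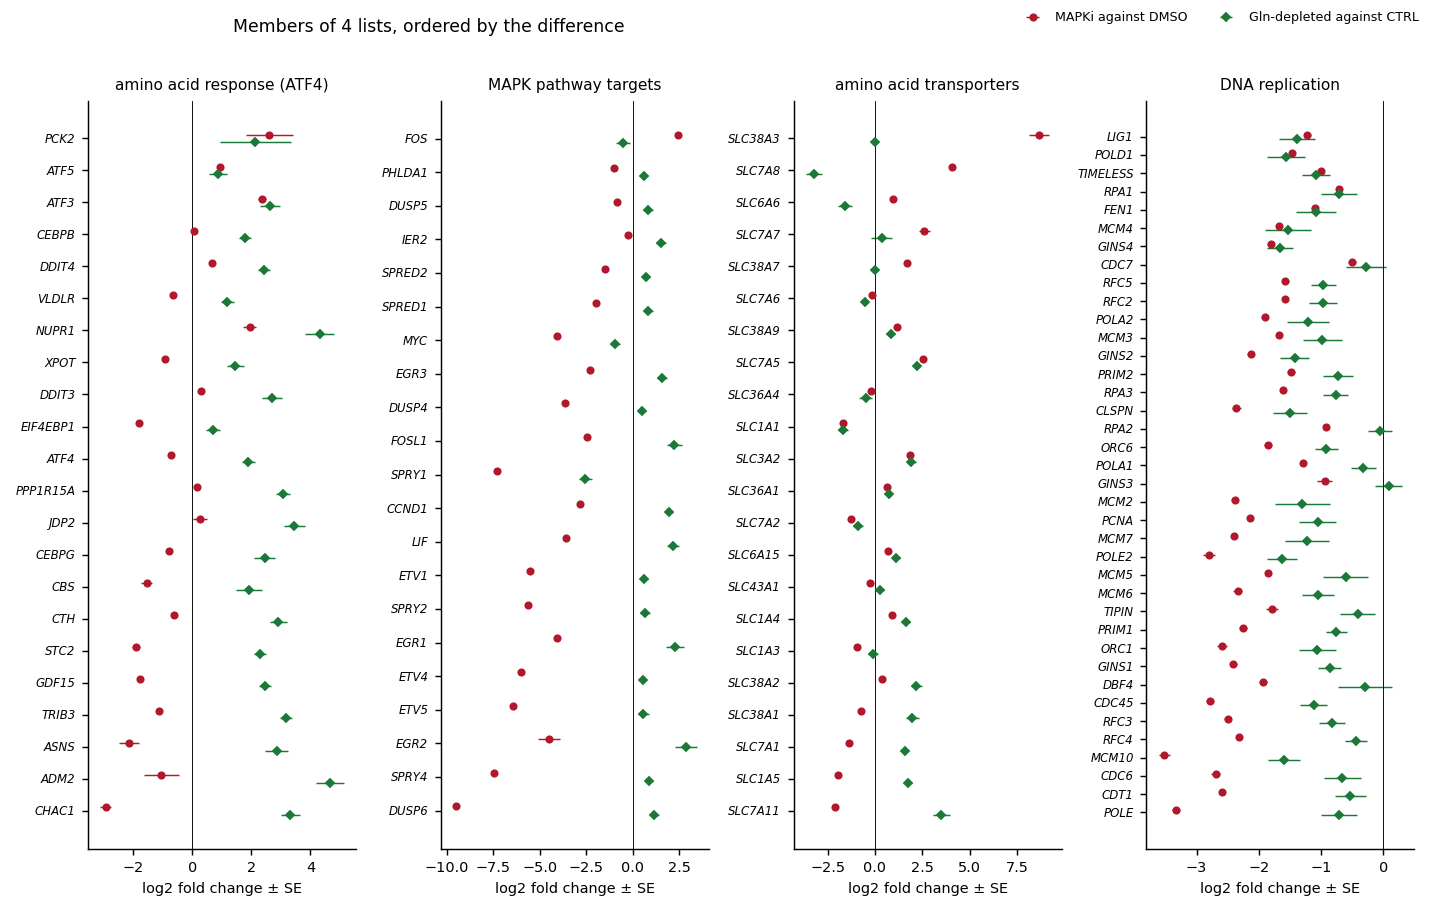
Log2 fold change ± SE (x axis) of each tested member of 4 lists with MAPKi (red circles) and after Gln depletion (green diamonds), ordered within a list by the difference. ATF4 and MAPK targets lie mostly to the right after Gln depletion and to the left with MAPKi, the transporters split in both directions, and DNA replication genes lie to the left for MAPKi in every row.

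Of 21 targets of the MAPK pathway tested, the difference was lower with MAPKi in 20 and higher in 1, with medians of -3.63 and 0.83, and 7 were called up after Gln depletion. DUSP6, the ERK phosphatase, had 2.01, 8.93 and 7.09 normalized counts with MAPKi against 4639, 4602 and 4344, and 14960, 15780 and 9841 after Gln depletion against 7738, 4800 and 6250. The Gln groups of DUSP6 did not overlap, but its rise of 1.16 was not called (adjusted p = 0.0997), in contrast to SPRY1, which fell.

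Growth genes of the list were called in both, in opposite ways. CCND1, cyclin D1, had 1103, 1180 and 1138 normalized counts with MAPKi against 8027, 9462 and 7579, and 70690, 63910 and 47370 after Gln depletion against 15260, 16330 and 17480. Its difference was -4.76 ± 0.23 (adjusted p = 6.55e-08). EGR1, an early growth response factor, had 34.2, 38.0 and 45.2 against 706, 637 and 658, and 3492, 9058 and 6642 against 2368, 746 and 1084. The AP-1 subunit FOSL1 (-2.45 and 2.23), the cytokine LIF (-3.59 and 2.15) and EGR3 (-2.33 and 1.55) did likewise, and EGR2 was 25.5-fold lower with MAPKi (9.66 to 95.5, counting error). FOS, another AP-1 subunit, was the 1 member higher with MAPKi, with 3661, 4123 and 3954 against 786, 691 and 737, and 662, 690 and 534 after Gln depletion against 1564, 641 and 622. The Gln groups of FOS overlapped (difference 3.00, adjusted p = 0.000176). Of 12 YAP-TEAD targets, an outlet of mechanical signalling, 9 had a lower and 0 a higher change with MAPKi, with medians of -0.65 and 0.76.

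Genes of DNA replication fell with MAPKi, and some of them also after Gln depletion, in a number that depended on the replicate block. Of 38 tested, MAPKi called 37 down and Gln depletion 6, which were down in both, with medians of -1.88 and -0.97. With the block 22 of the 38 were down in both. The difference was called lower in 26 and higher in 0. MCM10, which helps start replication forks, had 165, 137 and 160 normalized counts with MAPKi against 1735, 1966 and 1657, and 894, 582 and 521 after Gln depletion against 1825, 2023 and 2356. It fell by 3.52 and 1.59 (difference -1.89, adjusted p = 0.000229). GINS4, of the replicative helicase, had 592, 669 and 610 against 2142, 2210 and 2266, and 799, 650 and 888 against 2900, 2181 and 2541. POLD1, the catalytic subunit of polymerase delta, fell by 1.46 and 1.56. The GINS4 and POLD1 differences of -0.11 ± 0.20 and 0.15 ± 0.34 were not called (adjusted p = 0.697 and 0.76). GINS2, CLSPN and POLE2 were the other members down in both. POLE, of polymerase epsilon, fell by 3.32 with MAPKi, with -0.71 after Gln depletion, and had the largest difference of the list (-2.57, adjusted p = 9.62e-05).

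Repair, mitosis and nucleotide synthesis had the same order of medians. With the block, 5 repair genes, 14 mitosis genes and 4 genes of nucleotide synthesis were down in both, where without it 1, 3 and 0 were. Of 32 genes of DNA repair and checkpoints, 1 (RAD54L) fell in both and 18 had a lower change with MAPKi, 0 a higher one (medians -1.67 and -0.52). RAD54L, of homologous recombination, had -2.82 and -1.64, and the exonuclease EXO1, with -2.82 and -0.52, had the largest difference of the list (-2.26, adjusted p = 3.66e-05). Of 36 mitosis genes, 3 fell in both: MYBL2, a transcription factor of the cell cycle (-2.38 and -1.44), the kinase AURKB (-2.26 and -1.44) and the condensin subunit NCAPH (-1.76 and -1.44). UBE2C, which loads ubiquitin on mitotic proteins, had -1.63 with MAPKi and -0.04 after Gln depletion. The list had 14 lower and 1 higher difference, and medians of -1.41 and -0.74. KIF20A, a kinesin of cytokinesis, was the 1 higher: it had -0.60, not called, with MAPKi and fell by 1.70 after Gln depletion. Of 26 genes of purine and pyrimidine synthesis 19 had a lower and 0 a higher difference (medians -1.30 and -0.30). RRM2, which makes deoxynucleotides, had 1385, 1363 and 1301 normalized counts with MAPKi against 9993, 10740 and 9837, and 10660, 10020 and 9939 after Gln depletion against 13250, 12340 and 14860.

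E2F transcription factors bind promoter elements of many genes of DNA replication. The letters TTTGGCGC, TTTGCCGC, TTTCGCGC and TTTCCCGC, searched on both strands of the same windows, stood in 5.4% of the windows of genes tested and 3.33% of all windows. Of the genes down in both 8 of 83 windows held 1 of them (9.64%), of the genes down with MAPKi alone 67 of 740 (9.05%), and of the DNA replication list 17 of 33 (51.5%). The repair list had 8 of 26 (30.8%), mitosis 2 of 30 (6.67%) and purine and pyrimidine synthesis 2 of 23 (8.7%). The bases before the start sites of GINS2 and TYMS, which fell under both stresses, are given as examples, with the match in capitals, 31 and 39 bases before the start site.
GINS2 (chr16:85688955-85689204, minus strand): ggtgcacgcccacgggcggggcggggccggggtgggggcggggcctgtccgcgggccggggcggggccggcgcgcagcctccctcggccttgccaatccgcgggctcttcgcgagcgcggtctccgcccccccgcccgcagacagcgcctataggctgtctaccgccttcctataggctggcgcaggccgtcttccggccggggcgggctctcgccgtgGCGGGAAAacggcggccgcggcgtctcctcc
TYMS (chr18:657403-657652, plus strand): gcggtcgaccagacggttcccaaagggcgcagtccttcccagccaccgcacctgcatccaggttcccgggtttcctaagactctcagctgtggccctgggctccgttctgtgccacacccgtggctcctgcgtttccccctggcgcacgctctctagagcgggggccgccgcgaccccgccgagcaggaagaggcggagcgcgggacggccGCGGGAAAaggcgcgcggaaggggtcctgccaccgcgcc
In both the letters are read on the opposite strand.

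Genes of ribosome assembly and of the ribosome itself had lower changes with MAPKi. Of 33 genes of ribosome biogenesis, 16 had a lower and 0 a higher difference, with medians of -1.05 and -0.16, and of 75 cytosolic ribosomal proteins 58 had a lower and 0 a higher one, with medians of -0.46 and 0.52. RPL12 had 11700, 13080 and 12860 normalized counts with MAPKi against 18260, 19190 and 19890, and 19830, 32600 and 41630 after Gln depletion against 14560, 16700 and 19340. Neither change of RPL12 was called, while its difference of -1.49 was (adjusted p = 0.00224). Ribosomal proteins have many near-identical copies in the genome, so the values of single members are uncertain.

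Many mitochondrial and lysosomal genes were called up with MAPKi, and without the block 0 of them were called after Gln depletion. Of 50 respiratory chain subunits, 30 were called up with MAPKi and 0 called after Gln depletion, with medians of 0.77 and -0.14, and 22 met the rule for a rise with MAPKi alone. The difference was higher in 36 and lower in 0, and with the block in 45 and 0. With the block 1 member rose with MAPKi and fell after Gln depletion. Log2 fold changes of the members after Gln depletion ran from -3.23 to 2.00, so the lack of calls does not show that they were unchanged. ATP5MC3, of the ATP synthase, had 17240, 17420 and 17520 normalized counts with MAPKi against 9568, 9765 and 9846, and 5269, 3621 and 4661 after Gln depletion against 12010, 8837 and 8967. The latter groups did not overlap, but the change of -1.09 was not called (adjusted p = 0.0883).

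Of 30 genes of the TCA cycle and pyruvate metabolism, 21 had a higher and 3 a lower difference, and with the block 25 and 3. With the block 1 of them rose with MAPKi and fell after Gln depletion. ME1, cytosolic malic enzyme, had a lower difference, with -1.47 and 0.75, the second not called (difference -2.17, adjusted p = 2.86e-06). PDK4, a kinase that shuts off pyruvate dehydrogenase, fell under both, with -2.18 and -2.785 (difference 0.65, adjusted p = 0.192). Of 25 lysosomal genes, which hydrolyse and recycle macromolecules, 13 were called up with MAPKi and 0 after Gln depletion, and the difference was higher in 17 and lower in 0 (medians 0.72 and -0.16). With the block the difference was higher in 24 and lower in 1. CTSA, a lysosomal carboxypeptidase, had the largest, 2.38 (adjusted p = 1.87e-05).

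Interferon-stimulated genes and pigmentation genes had medians of opposite sign. Of 16 interferon-stimulated genes, 12 had a higher and 0 a lower difference (medians 0.83 and -0.84), although 0 was called after Gln depletion. With the block 1 was down in both. IFITM1, which restricts virus entry, had 204, 160 and 155 normalized counts with MAPKi against 21.6, 21.9 and 35.9, and 4.00, 7.57 and 2.37 after Gln depletion against 18.2, 15.3 and 6.24, so that the Gln groups overlapped. Of 11 pigmentation genes, 10 had a higher and 1 a lower difference (medians 0.82 and -0.97). MITF, the master factor of melanocytes, was called in both, in opposite ways. It had 24230, 22850 and 23880 normalized counts with MAPKi against 13990, 13590 and 13780, and 2395, 1564 and 2252 after Gln depletion against 7145, 12880 and 12340. Its log2 fold changes of 0.79 and -2.34 differed by 3.17 ± 0.30 (adjusted p = 1.22e-05).

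DCT, an enzyme of melanin synthesis, rose with MAPKi to 323700, 244200 and 253900 from 8494, 5675 and 7011. After Gln depletion it had 997, 2778 and 4531 against 1830, 7964 and 6932, which overlapped. CDK2, a cell cycle kinase that MITF controls in melanocytes, fell under both by 0.94 and 1.63. Among 14 neural crest and receptor genes, the difference was higher in 5 and lower in 4: NGFR rose by 5.05 with MAPKi with 1.35, not called, after Gln depletion, and SOX9 had -3.36 and 0.47.

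Sterol and fatty acid synthesis had negative medians in both experiments. Of 32 genes tested 11 were called down with MAPKi and 9 after Gln depletion, 2 of them the same genes, with medians of -0.41 and -0.96, and the difference was higher with MAPKi in 15. SQLE, squalene epoxidase, had 1495, 1372 and 1238 normalized counts with MAPKi against 3682, 3601 and 3506, and 1784, 1263 and 877 after Gln depletion against 5341, 4329 and 3200. It fell by 1.38 and 1.66 (difference 0.33, adjusted p = 0.46). HSD17B7 was the other, by 0.85 and 1.73. With the block 9 genes of the list were down in both. SREBF2, the main regulator of sterol synthesis, rose by 0.73 with MAPKi and fell by 1.44 after Gln depletion. TM7SF2, a sterol reductase, rose by 2.97 with MAPKi, with 0.24 after Gln depletion.

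Some genes raised by both stresses belong to smaller lists. Of 16 p53 targets 3 rose under both: CDKN1A (p21), the inhibitor of cyclin-dependent kinases, BBC3 (PUMA), which promotes cell death, and TP53INP1. CDKN1A had 4861, 5262 and 5039 normalized counts with MAPKi against 2547, 2459 and 2339, and 9287, 8782 and 6370 after Gln depletion against 3920, 2178 and 2978. The differences were not called for CDKN1A (-0.38 ± 0.28, adjusted p = 0.309) and BBC3 (-0.13 ± 0.25, adjusted p = 0.712), and TP53INP1 rose more with MAPKi (3.39 and 1.79). GADD45A, a stress sensor of the list, moved oppositely (-0.95 and 3.13), and TP53I3 had the largest difference towards MAPKi (1.95 and 0.04).

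Of 23 autophagy genes 2 rose under both, GABARAPL1, an ATG8 protein of the autophagosome (1.39 and 1.61), and WIPI1, which acts early in its formation (1.63 and 1.42). Their differences of -0.18 and 0.25 were not called (adjusted p = 0.57 and 0.454). MAP1LC3B, another ATG8 protein, rose by 2.37 after Gln depletion with 0.64, not called, with MAPKi. Of 21 genes of the unfolded protein response, HERPUD1 (1.12 and 1.63) and the chaperone cofactor DNAJB9 (1.15 and 2.22) rose under both, while the sensor ERN1 (IRE1) had 0.26 and 3.32. VEGFA, the vascular growth factor, rose by 1.08 and 3.40, from 1692, 1689 and 1550 to 17050, 18990 and 14430 normalized counts after Gln depletion. IL11, a cytokine, was at 15.1, 18.97 and 15.1 with MAPKi against 6.47, 3.97 and 4.85, and at 912, 2262 and 539 after Gln depletion against 12.1, 12.5 and 8.02. Its rises of 1.68 and 6.87 were thus of very unequal size (difference -5.16, adjusted p = 0.00116).

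**Figure D4:**
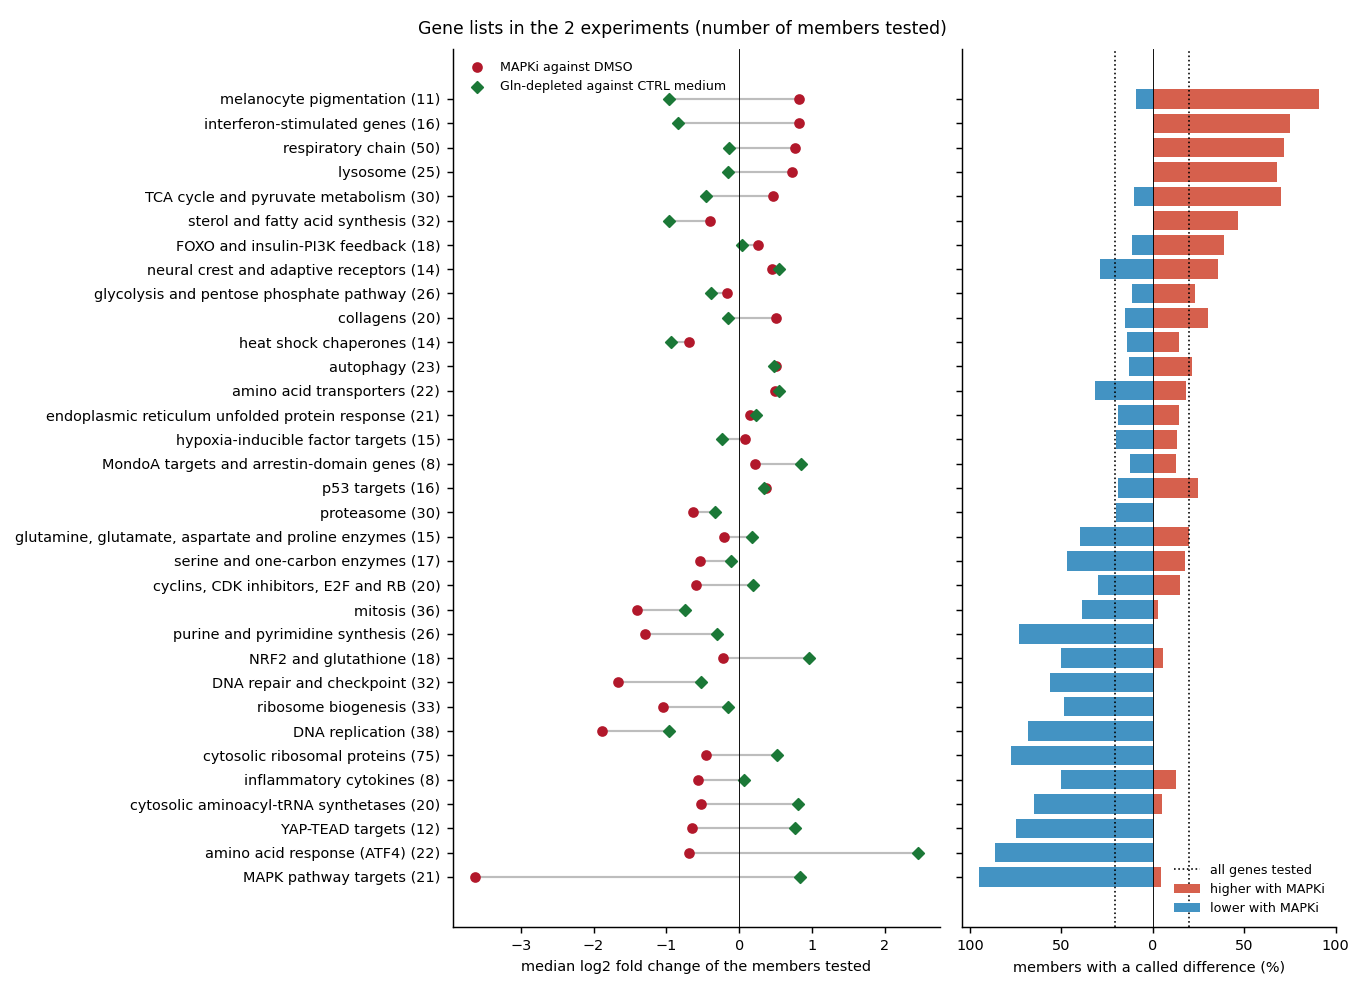
Left, median log2 fold change of the tested members of each of 33 lists with MAPKi (red circles) and after Gln depletion (green diamonds), ordered by the difference, with the number tested in brackets. Right, percent of members whose difference was called higher or lower with MAPKi, with dotted lines at the 19.8% and 20.7% of all genes tested: MAPK and ATF4 targets lie at one end, pigmentation and interferon-stimulated genes at the other.

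The remaining lists held few genes called in both. Among 18 genes of FOXO and insulin feedback, 7 had a higher and 2 a lower difference: PIK3IP1, an inhibitor of PI3K, rose by 3.07 with MAPKi with -1.28, not called, after Gln depletion, and TRIB1 fell by 2.65 with MAPKi with 0.84, not called. Of 20 cyclins, CDK inhibitors, E2F and RB genes, 3 had a higher and 6 a lower difference. CCND2, cyclin D2, was at 0 in CTRL medium and at least 79.6-fold higher after Gln depletion, with at most the floor of 3 reads in the MAPKi experiment, so the responses could not be compared. Of 15 targets of hypoxia-inducible factors 2 had a higher and 3 a lower difference, of 8 inflammatory cytokine genes 1 and 4, and of 8 MondoA targets and arrestin-domain genes 1 and 1. CXCL8, the neutrophil chemoattractant, was lower with MAPKi by 6.19-fold to 1490-fold (95% interval, counting error), with 1.58, not called, after Gln depletion. Of 20 collagens 6 had a higher and 3 a lower difference, and COL27A1 fell under both (-1.59 and -1.39, difference -0.16, adjusted p = 0.572).

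Lists with little of either pattern were the proteasome (30 tested, 24 without a called difference, medians -0.63 and -0.34), glycolysis and the pentose phosphate pathway (26 tested, 17 without, medians -0.17 and -0.39) and heat shock chaperones (14 tested, 10 without, medians -0.69 and -0.94). A difference that misses the threshold does not show that the responses were equal, since the block called further members in each: 15 of the 30 proteasome genes then had a lower change with MAPKi, against 6. The block also put 4 proteasome genes, 4 chaperones and 1 glycolysis gene down in both, where without it 0 were. Over all 12629 genes it raised those down in both from 105 to 413 and those lower with MAPKi from 2613 to 3999. Such gains were thus general, and 1 of 26 glycolysis genes is near the share of all genes. CRYAB, a small heat shock protein, rose by 2.90 with MAPKi with -1.19, not called, after Gln depletion, and ALDOC, an aldolase of glycolysis, fell by 1.99 after Gln depletion with 0.42, not called, under MAPKi.

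**Figure D5:**
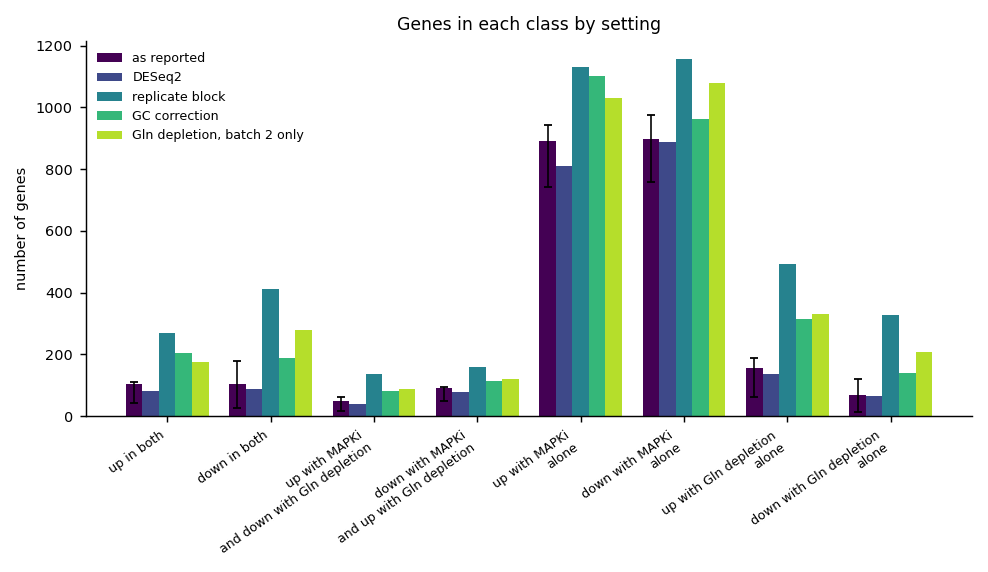
Number of genes in each of the 8 classes (y axis) as reported, by DESeq2, with the replicate block, with a correction for GC content, and with the Gln experiment limited to its batch 2; lines on the first bar run from the lowest to the highest count when 1 library is left out. The 4 classes called in both rest on the Gln experiment and grow from 104, 105, 50 and 91 to 271, 413, 137 and 159 with the block, and the 2 MAPKi classes from 892 and 897 to 1131 and 1158.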

How the data were processed

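RNA-seq of A375 cells was analysed in 12 libraries, 3 each of MAPKi, DMSO, Gln-depleted and CTRL medium. The authors trimmed reads with fastp 0.20.1, aligned them to GRCh38.p13 with HISAT2 2.2.1 and counted reads per gene with HTSeq 0.13.5 after depletion of rRNA, and the deposited values are raw counts of 44659 genes, 17889 of which had fewer than 2 reads. The labels describe cytoplasmic RNA and the RNA-seq methods total RNA, which were not told apart here. Between 31056296 and 40071368 reads were counted per library, so the spread between replicates limits precision more than counting does.

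Symbols were matched to RefSeq genes: 36524 by symbol, 524 by an older symbol, 5082 as further copies of a gene and 2529 not at all. Coordinates are those of RefSeq for GRCh38.p14. Of the genes tested, 10420 had a RefSeq promoter window.

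Each treatment was compared with its own control in edgeR 4.0.16 (R 4.3.3, TMM, quasi-likelihood fit of the 6 libraries of the experiment) against a 1.5-fold change, and the difference of the log2 fold changes was tested against 0 as a contrast over 12 libraries, with Benjamini-Hochberg adjustment over 12629 genes at 0.05. Standard errors are those of the fit. Folds against a group of few reads were replaced by a ratio with a 95% interval, or by a bound against 3 counts per library where the group was at 0. The ratio is that of the summed reads of the groups, scaled to their total reads and not to the TMM sizes. Such intervals cover counting error only.

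Members and lists were chosen with earlier results of these data known. The genes named are, per class called in both experiments, the 5 with the largest smaller absolute change of both, and, per class called in one alone, the 4 with the largest difference, all averaging 100 or more normalized counts, no overlap between groups where called and 1 row in the table. Those named from the lists are drawn from members of the 4 classes called in both and those with the largest difference in each direction, leaving out genes with further copies in the table, and ATP5MC3 was added after its values were seen. Some members are not reported here. Of 36 lists 33 are pathways and 3 are checks.

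Same-numbered libraries of the Gln experiment deviated together, with correlations of 0.716, 0.606 and 0.445 across 10741 genes, and the labels give replicate 1 a batch of its own, so the numbers pair these libraries. The calls reported leave this pairing out, and each class was larger with the block. The titles of the MAPKi experiment also share numbers, with correlations of 0.125, 0.066 and 0.012. The numbers were taken there as not pairing, which the labels do not settle, although the block covered this experiment too. On simulated counts for the 12629 genes, 22 to 24 of 25 genes changed 4-fold were recovered per class called in both, 1 or 2 of 25 changed 2-fold, and 0 of 12429 unchanged genes. The simulated counts had no pair or batch effect, and every changed gene was changed in both experiments. Changed genes were drawn from those averaging 100 or more normalized counts, so recovery at lower counts was not tried. The spread of each gene was taken from the trend over genes and was not its own. These figures therefore check the procedure and do not give error rates for the Gln libraries. Alternatives used DESeq2 1.42.0 and limma 3.58.1, and figures matplotlib 3.10.9.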

Additional observations from a re-analysis of the deposited data

How the results depend on the processing

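The 4 classes called in both experiments (up in both, down in both, up with MAPKi and down after Gln depletion, and the reverse) and the 2 of Gln depletion alone (up, down) rest on the Gln experiment, whose replicates spread more, and their counts moved by over 1.5 times with how that spread was treated. With the replicate number as a block in both experiments they were 271, 413, 137 and 159, with 492 and 328 alone, and 3999 genes had a lower change with MAPKi. The block with a GC-content correction gave 319, 340, 137 and 147, with 519 and 259 alone. A GC-content correction without the block gave 205, 190 and 83 for the first 3, with 314 and 140 alone. Testing each experiment in the fit of 12 libraries gave 161, 294 and 108 for the first 3, with 305 and 270 alone, and the Gln experiment within experimental batch 2 gave 174, 279 and 89, with 330 and 207. That fit held 100, 99, 46 and 91 of the genes reported in the 4 classes. Without a fold-change threshold the 4 counts were 561, 617, 289 and 341. After Gln depletion alone 106 genes then fell, 25 of them among the 70 reported. With the difference tested against 1.5-fold, 577 and 537 genes rose and fell with MAPKi alone, and the difference was called higher in 1431 and lower in 1394. DESeq2 gave 81, 88, 41 and 78, and no count under DESeq2, its size factors, limma voom, either filter on low counts or all genes of the table moved by over 1.5 times.

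Leaving out 1 library gave 42 to 111 genes up in both, 28 to 179 down in both, 16 to 62 up with MAPKi and down after Gln depletion, 49 to 96 for the reverse, 743 to 944 and 757 to 976 up and down with MAPKi alone, 62 to 190 and 13 to 122 up and down after Gln depletion alone, and 2062 to 3085 and 2162 to 2983 with a higher and lower change with MAPKi. The libraries that moved a count by over 1.5 times were CTRL medium replicate 2 (43, 29, 17 and 51 in the 4 classes, 66 and 14 alone), CTRL medium replicate 3 (42, 33, 21 and 50, 62 and 22), Gln-depleted replicate 2 (47, 28, 16 and 49, 68 and 13), Gln-depleted replicate 3 (67, 68 and 32 in the first 3, 97 and 41 alone) and Gln-depleted replicate 1 (179 down in both, 122 down alone). Which of these counts is nearer the truth was not tested. Of 864 values of the difference of single named genes under the alternatives, 847 stayed on their side of the threshold, 14 (OTULINL) missed it and 3 (PITPNM3) newly passed it. Differences near 0 that were not called changed sign between alternatives: SLITRK6 ran from -0.53 to 0.90, SLC16A4 from -0.32 to 0.01, ATF3 from -0.64 to 0.06 and WNT10B from -0.33 to 0.10. These values do not bear on the calls in each experiment that define the classes.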
